A study of Rattus norvegicus and Mus musculus with 74 samples.

Results

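Hox cluster genes were followed across 4 histone marks in the brain cortex of rats and mice. Every region of the deposited tables that listed a gene symbol of the form Hox, a cluster letter (a, b, c or d) and a number was taken, which gave 14 of 132934 regions: 9 of 72824 in the rat table and 5 of 60110 in the mouse table. The mouse regions listed all 39 Hox genes, 11 of HoxA, 10 of HoxB, 9 of HoxC and 9 of HoxD. The rat regions listed 30: 5 of HoxA, 10 of HoxB, 8 of HoxC and 7 of HoxD. No rat region was listed under Hoxa4, Hoxa7, Hoxa9, Hoxa10, Hoxa11, Hoxa13, Hoxc11, Hoxd8 or Hoxd11, which were not analysed here in that species. In RefSeq, the gene identifiers behind 2 provisional symbols of the rat regions, LOC100912525 and LOC100911859, belong to Hoxa4 and Hoxc11.

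The study profiled H3K4me3, H3K9Ac, H3K27me3 and H3K9me3 by chromatin immunoprecipitation and sequencing in cortex from 2 models of neurodevelopmental disorders. Rats were Sprague-Dawley and mice C57BL/6J, and a species had 3 groups. Controls were healthy animals given vehicle, a second group had been exposed before birth and was given vehicle (here the vehicle group), and the third had the same exposure and was given TAK-418 (the TAK-418 group). The exposure was to valproate (VPA), an antiepileptic drug and histone deacetylase inhibitor, in rats, and, in mice, to poly I:C, a double-stranded RNA analog that mimics viral infection. TAK-418 inhibits LSD1 (Kdm1a), an enzyme that removes methyl groups from lysine 4 of histone H3. The sources used here do not give sex, age, dose or time of sampling. Each group had 3 libraries per mark, 72 in all among 74 samples, and the other 2 samples were pooled inputs, 1 per species, whose signal was not analysed here. Whether the 3 libraries of a group were 3 animals is not stated, so p-values refer to the spread among these libraries, which may be partly technical.

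Hox genes encode homeodomain transcription factors that set position along the head-to-tail axis of the embryo. They lie in clusters, HoxA to HoxD, in an order that follows the body regions where they act, with genes for the hindbrain at one end and genes for the trunk, limbs and tail at the other. The forebrain, which forms the cortex, develops without Hox expression, and there the clusters are a textbook target of Polycomb repressive complexes, which write H3K27me3. H3K4me3 and H3K9Ac mark promoters in use, and H3K9me3 marks constitutive heterochromatin.

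Polycomb complexes in mammals gather at unmethylated CpG-rich DNA, so rat promoters are shown here for each cluster with every CpG (CG, which reads the same on both strands) in capitals. RefSeq's GRCr8 table held promoters of 300 bases, from 250 before to 50 after the gene start, for 20 Hox genes (21 promoters), 12 of them among the 30 listed in the rat table. The promoters below include Hoxa2 (chr4:82595643-82595942, minus strand) and Hoxb1 (chr10:81827665-81827964, plus strand), which pattern the hindbrain. Hoxc4 (chr7:136048809-136049108, plus strand) acts in the neck and upper trunk. Hoxd10 (chr3:80001697-80001996, plus strand) and Hoxd1 (chr3:80072791-80073090, plus strand) are from HoxD. The region with the Hoxd10 start had the highest control H3K27me3 of the rat Hox regions, a mean signal of 31.4. The region with the Hoxd1 start had 22.2, below those with the starts of Hoxb1 (24.6) and Hoxc4 (24.3). A link between CpG number and H3K27me3 was not tested.
Hoxa2 promoter: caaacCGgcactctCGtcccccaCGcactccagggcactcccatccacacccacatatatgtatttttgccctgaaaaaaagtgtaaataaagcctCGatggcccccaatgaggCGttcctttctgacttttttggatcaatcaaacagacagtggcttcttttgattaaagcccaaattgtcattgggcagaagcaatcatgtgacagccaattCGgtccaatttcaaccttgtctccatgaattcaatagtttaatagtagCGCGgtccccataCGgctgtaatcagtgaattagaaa
Hoxb1 promoter: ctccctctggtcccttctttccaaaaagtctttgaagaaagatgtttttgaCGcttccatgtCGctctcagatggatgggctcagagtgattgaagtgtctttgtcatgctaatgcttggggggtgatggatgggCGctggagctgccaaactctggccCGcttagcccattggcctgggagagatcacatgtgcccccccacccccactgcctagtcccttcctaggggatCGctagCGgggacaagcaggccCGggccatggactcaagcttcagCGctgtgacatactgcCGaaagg
Hoxc4 promoter: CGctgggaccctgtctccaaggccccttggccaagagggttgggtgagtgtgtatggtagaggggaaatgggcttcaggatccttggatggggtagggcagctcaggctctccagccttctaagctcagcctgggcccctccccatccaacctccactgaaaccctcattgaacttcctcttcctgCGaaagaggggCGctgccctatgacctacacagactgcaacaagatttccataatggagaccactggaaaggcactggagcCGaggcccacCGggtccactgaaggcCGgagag
Hoxd10 promoter: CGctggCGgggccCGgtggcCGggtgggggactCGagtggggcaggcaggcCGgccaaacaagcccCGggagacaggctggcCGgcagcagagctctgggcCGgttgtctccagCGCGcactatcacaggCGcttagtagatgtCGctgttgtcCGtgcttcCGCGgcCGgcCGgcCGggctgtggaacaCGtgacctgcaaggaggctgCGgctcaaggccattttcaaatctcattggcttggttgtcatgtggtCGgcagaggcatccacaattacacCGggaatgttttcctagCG
Hoxd1 promoter: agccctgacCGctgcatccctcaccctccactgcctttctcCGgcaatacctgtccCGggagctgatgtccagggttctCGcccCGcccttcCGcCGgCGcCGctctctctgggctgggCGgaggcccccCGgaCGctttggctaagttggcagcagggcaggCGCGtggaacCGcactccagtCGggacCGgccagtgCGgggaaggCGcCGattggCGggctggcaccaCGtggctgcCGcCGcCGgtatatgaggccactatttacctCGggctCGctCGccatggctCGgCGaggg

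CpG number varied widely among these promoters: 9 in Hoxa2, 9 in Hoxb1, 6 in Hoxc4, 24 in Hoxd10 and 30 in Hoxd1. Over the 21 Hox promoters the median was 22 CpG, against 7 in all 33469 promoters of the same length (quartiles 3 and 19), of which 94.5% held at least 1. Hoxd8, at 49 CpG, was the richest Hox promoter and Hoxc4 the poorest, and 20 of 21 lay above the median of all promoters. These coordinates are of GRCr8 and were not placed on the rn5 regions of the deposited table.

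The rat regions also listed microRNA genes that sit among the Hox genes and whose products act on Hox messenger RNAs. Their RefSeq mature sequences (GRCr8, all on the plus strand) are given with the seed, bases 2 to 8, in capitals: miR-10a-5p (chr10:81779730-81779752), miR-10b-5p (chr3:80035886-80035907), miR-196a-5p (chr7:135988900-135988921) and miR-196c-5p (chr10:81727561-81727582).
miR-10a-5p: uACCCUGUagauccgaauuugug
miR-10b-5p: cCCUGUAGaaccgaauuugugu
miR-196a-5p: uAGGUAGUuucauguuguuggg
miR-196c-5p: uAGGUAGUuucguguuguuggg

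The miR-196 products, from HoxC and HoxB, share 1 seed. The miR-10b-5p entry begins 2 bases further into the sequence that it shares with miR-10a-5p, so the capitals mark shifted stretches. Bases 2 to 8 of the miR-10 entries as listed therefore do not show that their seeds differ. Mir10a, Mir10b and Mir196a were listed in Hox regions alone, and so have no signal value apart from theirs; Mir196c was also listed in a small region beside Hoxb9.

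The regions differed in size between species. In the mouse (mm10), 1 region spanned the whole of each cluster: HoxA (chr6:52134800-52333599, 198799 bp), HoxB from Hoxb1 to Hoxb13 (chr11:96119400-96473199, 353799 bp), HoxC from Hoxc4 to Hoxc13 (chr15:102871200-103194199, 322999 bp) and HoxD from Hoxd1 to Hoxd13 (chr2:74627600-74773599, 145999 bp). The HoxB region was the 7th longest of the mouse table and the HoxC region the 14th, and the HoxA region had 27 CpG islands, the second most of any mouse region. The fifth mouse region, chr2:74774000-74781199 (7199 bp), lay beside HoxD, listed Hoxd1 and held no gene start and no CpG island. It is called the Hoxd1 flank here.

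In the rat (rn5), clusters were split. HoxB fell into a Hoxb13 region (chr10:83756400-83853999, 97599 bp) and a region with the starts of Hoxb1 to Hoxb9 (chr10:83909600-84041799, 132199 bp, 19 CpG islands). HoxC fell into a region listing Hoxc9 to Hoxc13 (chr7:142296600-142383199, 86599 bp) and one listing Hoxc4 to Hoxc9 (chr7:142389400-142452399, 62999 bp). HoxD fell into 3 regions, named here by the genes they list: Hoxd12 to Hoxd13 with Evx2 (chr3:68044600-68065999, 21399 bp), Hoxd4 to Hoxd13, which holds the starts of Hoxd10 and Hoxd9 (chr3:68067000-68092799, 25799 bp), and Hoxd1 to Hoxd10, which holds the starts of Hoxd4, Hoxd3 and Hoxd1 (chr3:68093600-68161799, 68199 bp). HoxA had a fragment of 399 bp that listed Hoxa3, Hoxa5 and Hoxa6 (chr4:146838400-146838799). A region listing several genes gives them 1 shared value, so single Hox genes cannot be told apart, and a long region may also list other genes, such as Calcoco2 beside Hoxb13 in both species, or Smug1 and Cbx5 in the mouse HoxC region.

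Values are the deposited mean signal per region, which was 0 or at least 1, and read depth is unknown. The cortical origin of the tissue was visible in H3K4me3: 7 of 7 cortex identity genes had an H3K4me3 interval in all 9 libraries in both species, against 3 of 6 hindbrain and spinal cord genes in the rat and 2 of 6 in the mouse. Signal totals and interval counts differed between libraries of a group. Vehicle replicate 3 of the mouse H3K27me3 series had 1916 called intervals, against 3236 to 13596 in the other 8. Control 1 of the rat H3K9me3 series had 7704, against 15533 to 29883 in the other 8. Control 1 of the mouse H3K4me3 series had a summed signal of 284894, against 137187 to 173858 in the other 8. Mouse H3K9me3 was uneven as well, with 251 to 446 intervals in vehicle replicates 1 and 2 and TAK-418 replicate 2, and 4460 to 32258 in the other 6. Fewer cells carrying a mark and less of the mark per cell cannot be told apart in tissue.

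H3K27me3 over Hox clusters was near the top of each genome in control cortex. The rat regions had mean signals of 12.2 to 31.4, at percentiles 99.3 to 99.96 of all rat regions, whose median was 1.60. The mouse regions that span whole clusters had 12.2 to 19.9 against a median of 2.10 over all regions, and the HoxA region ranked 6th of 60110, HoxD 17th, HoxC 39th and HoxB 69th. Among regions of at least 100000 bp, mouse HoxA ranked 1st, HoxD 2nd, HoxC 4th and HoxB 6th of 517, and the rat Hoxb1 to Hoxb9 region 1st of 303. Regions of homeobox genes outside the clusters had a median of 8.94 in the rat (66 regions) and 8.00 in the mouse (55 regions). Being this high was not particular to Hox: 72 other rat regions and 36 other mouse regions were at or above the median Hox region, and 50 and 26 of these held a CpG island. Their median length was 5899 bp in the rat and 30999 bp in the mouse.

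**Figure D1:**
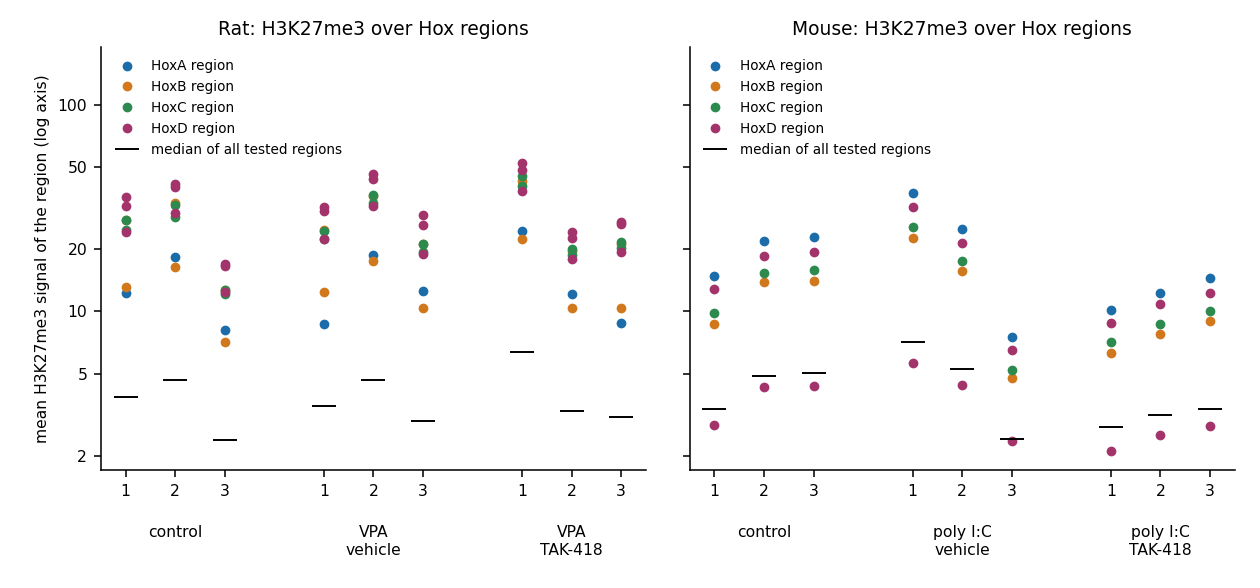
Mean H3K27me3 signal (log axis) of Hox regions in each of the 9 libraries of a species; points are regions coloured by cluster, and black bars are the median of all tested regions. The rat regions drawn lie above the bar in every library, and the Hoxd1 flank is the mouse point below it.

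Hoxd4 to Hoxd13, the stretch around Hoxd10 and Hoxd9, genes of the hind limb and lower spinal cord, carried the most H3K27me3 of the rat regions. Its mean signals were 35.8, 41.4 and 16.9 in controls, 31.8, 46.2 and 29.3 in the vehicle group, and 52.2, 24.3 and 27.1 in the TAK-418 group. It was the highest Hox region in 9 of 9 libraries, and the 3 groups overlapped, with 1 low library in controls and 1 high library under TAK-418. Its neighbour Hoxd12 to Hoxd13, whose Hoxd13 shapes the digits, had 29.6 ± 11.9 in controls (SD, n = 3), and Hoxd1 to Hoxd10, at the front end of the cluster, had 22.2 ± 8.93. Hoxd1 to Hoxd10 had 24.1, 30.0 and 12.4 in controls, 22.4, 32.5 and 18.9 with vehicle, and 38.4, 18.0 and 19.5 with TAK-418, and was the lowest HoxD region in controls.

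The remaining rat clusters followed the same libraries. Hoxb1 to Hoxb9 had 27.7, 33.5 and 12.7 in controls, 24.9, 36.2 and 21.1 with vehicle, and 42.8, 19.7 and 21.2 with TAK-418. Hoxc4 to Hoxc9 had 27.6, 32.6 and 12.7, then 24.4, 36.7 and 21.1, then 45.3, 20.0 and 21.7. In both regions control 3 was the lowest library and TAK-418 replicate 1 the highest, and the groups overlapped. The full order of the 9 libraries was identical in 5 of the 9 rat regions. Control means of these regions were 24.6 ± 10.7 and 24.3 ± 10.3 (SD, n = 3), and Hoxc9 to Hoxc13, with genes of the lower trunk, had 21.9 ± 8.64 (24.8, 28.7 and 12.1 in controls, 22.4, 33.6 and 19.4 with vehicle, and 40.3, 18.6 and 20.2 with TAK-418). Hoxc9 to Hoxc13 was below the other pair in 9 of 9 libraries, and Hoxd4 to Hoxd13, at 31.4 ± 12.8 in controls, above all 3. These differences were smaller than the larger SD of each pair, and that spread between libraries is shared by the regions.

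The lowest rat regions were at the edges. Hoxb13, a gene of the tail end and the prostate, shares its region with Calcoco2 and had 13.1, 16.4 and 7.13 in controls, 12.4, 17.5 and 10.4 with vehicle, and 22.5, 10.4 and 10.4 with TAK-418. The 399 bp Hoxa3 to Hoxa6 fragment had 12.3, 18.3 and 8.09, then 8.73, 18.6 and 12.5, then 24.5, 12.1 and 8.82. The groups overlapped in both, and no library of either reached the level of Hoxd4 to Hoxd13 in the same library.

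Mouse HoxA was the highest mouse region, with 14.8, 22.0 and 22.9 in controls, 37.5, 25.1 and 7.51 with vehicle, and 10.1, 12.2 and 14.6 with TAK-418. HoxD had 12.8, 18.6 and 19.4, then 31.9, 21.5 and 6.49, then 8.78, 10.8 and 12.3. In both, vehicle replicate 1 was the highest library and vehicle replicate 3 the lowest, and every TAK-418 library lay below every control library. HoxC, which also lists Hotair, a long noncoding RNA known for its tie to Polycomb, had 9.77, 15.4 and 15.8, then 25.6, 17.4 and 5.22, then 7.09, 8.71 and 10.1. HoxB had 8.65, 13.9 and 13.9, then 22.8, 15.7 and 4.75, then 6.30, 7.74 and 9.01. Here the highest TAK-418 library lay above the lowest control. The order HoxA, HoxD, HoxC, HoxB held in 9 of 9 libraries, while control means (19.9 ± 4.48, 17.0 ± 3.58, 13.7 ± 3.37 and 12.2 ± 3.04; SD, n = 3) differed between neighbours by less than the larger SD.

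The edges of the domains were steep on some sides and extended on others. In control mice the 5 regions on each side of HoxA had 2.19 to 5.98, against 19.9 inside. At the Hoxd1 end of HoxD the signal went from 17.0 to 3.82 ± 0.859 (SD, n = 3) in the Hoxd1 flank, at percentile 83.2, and to 3.65 in the next region. The flank had 2.83, 4.30 and 4.34 in controls, 5.59, 4.39 and 2.36 with vehicle, and 2.12, 2.51 and 2.79 with TAK-418, so every TAK-418 library was below every control, and vehicle replicate 3 below TAK-418 replicates 2 and 3. On that side follows Mtx2, which encodes a mitochondrial import protein and whose CpG island region carried 24.0 of H3K4me3 in mice and 34.7 in rats, with H3K27me3 at 2.96 and 2.45. In the rat, high H3K27me3 went on past the listed genes: the Evx1 region (Evx1 is the homeobox gene at the end of HoxA) had 20.6, the Evx2 side of HoxD 13.6, and a region of 3799 bp listing Mir196c, next to Hoxb9, 19.6. After Hoxc4, the next 4 regions had 9.81, 15.6, 9.23 and 10.5, and the one after them 1.39. Between Hoxb13 and that region, 8 regions without a Hox symbol had 3.30 to 9.64. The next rat region after the HoxA fragment began 142800 bp further on and had 17.5. Between it and the Evx1 region lay a region of 1999 bp with 3.0. The mouse HoxA and HoxD regions already list Evx1 and Evx2, and the mouse HoxC region lists Smug1 and Cbx5. Where an edge falls thus depends on how intervals were merged, and edges cannot be compared between species.

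**Figure D2:**
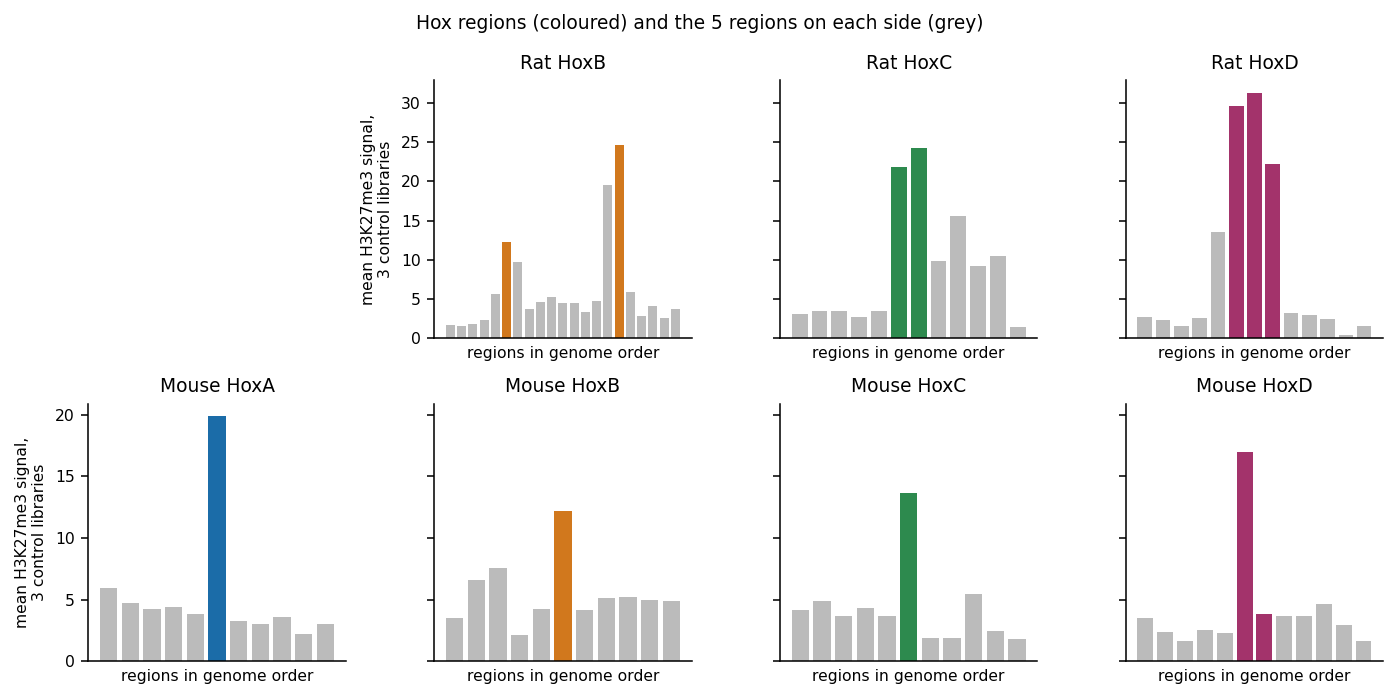
Mean control H3K27me3 signal (linear axis, mean of 3 libraries) of the Hox regions, coloured, and of the 5 table regions on each side and those between, grey, in genome order; widths are not to scale and rat HoxA is not drawn. The mouse clusters rise from 2.19 to 5.98 beside HoxA to 19.9 in it, and the rat HoxB panel shows Hoxb13 apart from Hoxb1 to Hoxb9.

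The active marks were low on average but not absent. Control H3K4me3 over the rat regions ran from 0 in the 399 bp fragment to 2.46 ± 0.263 in Hoxb13 (SD, n = 3), with a median percentile of 72.0, and mouse HoxC was the highest mouse region at 2.26 ± 0.530. Median percentiles for H3K9Ac were 55.9 in rats and 53.7 in mice. Compared only with regions that hold a promoter, the Hox median was at percentile 30.9 for H3K4me3 and 21.8 for H3K9Ac in rats, and at 28.3 and 19.8 in mice, while for H3K27me3 it was at 99.8 in both species. An H3K4me3 interval was called in at least 3 of 9 libraries in 4 of 9 rat regions (among them Hoxb13, Hoxc4 to Hoxc9 and Hoxd1 to Hoxd10) and 3 of 5 mouse regions (HoxA, HoxC and HoxD), as in 14296 of all 72824 rat and 12439 of all 60110 mouse regions.

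The highest point of H3K4me3 inside a region was well above its mean. In Hoxb13 the highest signal was 44, 70 and 57 in rat controls, and in mouse HoxC 106, 46 and 54. These regions also list Calcoco2, an autophagy receptor gene, and Smug1 and Cbx5, a DNA repair and a heterochromatin protein gene, and the tables do not say where in a region the highest point lies. In Hoxd1 to Hoxd10 of the rat, where the other listed genes are Mir10b and a provisional locus, it was 13, 23 and 13. A strong H3K27me3 domain and a local H3K4me3 maximum were recorded in the same tissue, without information on whether they were in the same cells.

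H3K9me3 over Hox regions varied between control libraries. In rats the Hox median lay at percentile 76.2 of the control mean, and at 46.6, 81.4 and 77.5 in the 3 control libraries. The Hoxd12 to Hoxd13 and Hoxd4 to Hoxd13 regions, the highest in H3K27me3, were also the highest in H3K9me3, at percentiles 96.3 and 95.8 with means of 3.78 ± 1.29 and 3.64 ± 1.16 (SD, n = 3). In mice the Hox median lay at percentile 47.4, and at 56.0 without control 1. On the highest signal the medians were at 95.8 in rats and 92.8 in mice, and the difference between species was not tested. A maximum tends to rise with the length of a region, and most Hox regions were long.

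**Figure D3:**
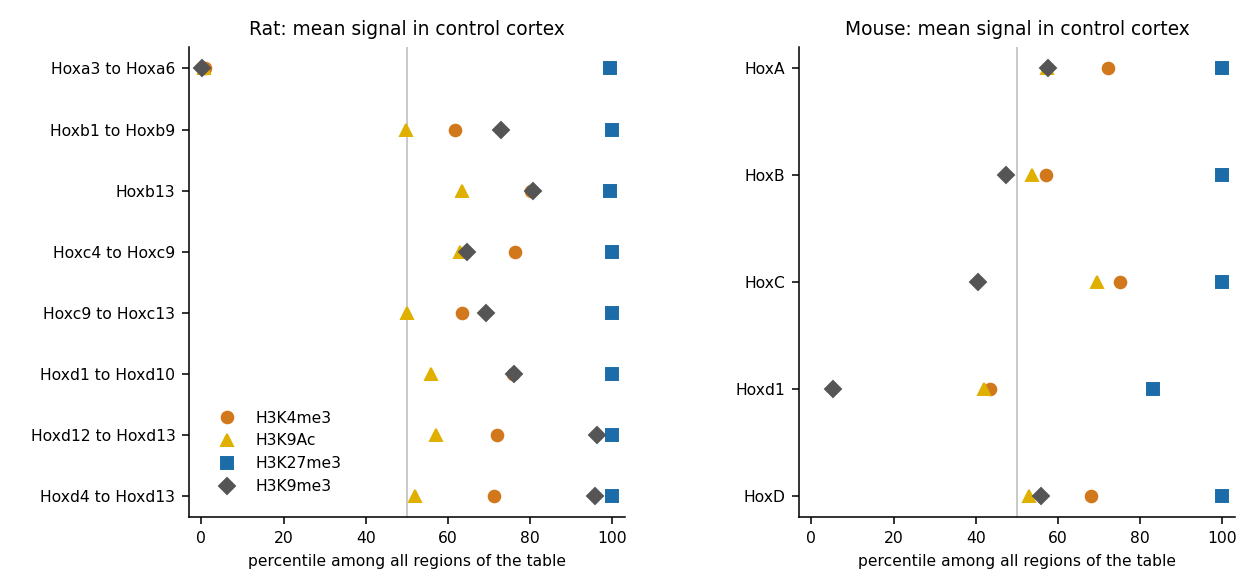
Percentile of the Hox regions' control mean signal (mean of 3 libraries) among all regions of its table, for 4 marks; the vertical line is the 50th percentile. H3K27me3 squares sit at 99.3 or above except for the mouse Hoxd1 flank at 83.2, and the active marks lie mostly in the upper part of the scale outside the 399 bp rat fragment and that flank.

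Each comparison was tested with limma on log2(mean signal + 1) over all regions with an interval in at least 3 of the 9 libraries, with Benjamini-Hochberg adjustment over all of them; log2 changes below are on that scale and understate the change of low signals. Tested Hox regions were 9 rat and 5 mouse for H3K27me3, 4 and 3 for H3K4me3, 3 and 2 for H3K9Ac, and 8 and 4 for H3K9me3. Of the 24 comparisons, 3 called any Hox region, and in each of them most tested regions were called in the same direction. Comparisons with the same controls or the same vehicle group share those libraries.

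The first of the 3 was H3K4me3 in TAK-418 rats against controls, groups that differ in both VPA exposure and drug. Effects of exposure and drug cannot be told apart in it. In this comparison 3 of 4 Hox regions were higher by limma at adjusted p under 0.05, where 72.8% of all tested regions were higher, and 3 of 4 had no overlap with controls, as did 50.8% of all tested regions. Hoxd1 to Hoxd10 had mean signals of 1.42, 1.80 and 1.60 in controls, 1.80, 1.82 and 2.07 with vehicle, and 3.02, 2.13 and 2.42 with TAK-418, with all TAK-418 libraries above all others; TAK-418 and vehicle were separated this way in 8.47% of all tested regions. Its log2 change against controls was 0.43 (SE 0.12, limma adjusted p = 0.00323).

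Hoxc4 to Hoxc9 moved less: 1.45, 1.89 and 1.61 in controls, 1.80, 1.85 and 1.99 with vehicle, and 1.93 to 2.37 with TAK-418, a log2 change of 0.27 (SE 0.12, limma adjusted p = 0.0327). Hoxb13 had 2.21, 2.73 and 2.45 in controls and 3.30, 2.54 and 3.71 with TAK-418, overlapping groups, and a log2 change of 0.27 that missed the threshold (limma adjusted p = 0.0795). The median change over Hox regions was 0.35, against 0.58 over all tested regions, and relative to that median values stood at -0.15 for Hoxd1 to Hoxd10, -0.31 for Hoxc4 to Hoxc9 and -0.31 for Hoxb13. With libraries centred on their medians, 0 of 4 were called by limma, as were 0 of 14296 regions (0% called, 2321 at an unadjusted p under 0.05). Without TAK-418 replicate 1, 1 of 4 was called higher by limma, where 12.3% of all tested regions were.

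The highest H3K4me3 signal gave a larger change in Hoxd1 to Hoxd10. It was 13, 23 and 13 in controls, 18, 20 and 33 with vehicle, and 59, 30 and 40 with TAK-418; all TAK-418 libraries were above all controls, as in 56.0% of all tested regions on this measure. Here the log2 change against controls was 1.34 (SE 0.33, limma adjusted p = 0.00219), where 81.4% of all tested regions were called higher, and it lay at percentile 97.8 of them. It was 0.51 above the median change of all tested regions on this scale, the opposite side from its mean signal. This measure was an alternative, not the main one. On the same measure Hoxc4 to Hoxc9 had 11, 18 and 15 in controls and 24, 13 and 34 with TAK-418, and the groups overlapped. Hoxb13 had 44, 70 and 57 in controls and 126, 75 and 161 with TAK-418, without overlap.

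The other H3K4me3 comparisons in rats gave no Hox call. Against controls the vehicle group gave changes of 0.11 to 0.25 and no call among 4 (limma; 1.64% of all tested regions were called), and TAK-418 against vehicle gave 0.15 to 0.30 and no call (limma; 0.224% called). Hoxd1 to Hoxd10 had 0.28 in the latter, with a 95% interval of 0.04 to 0.51 and an adjusted p of 0.516 by limma. With any single library left out, both counts were again 0.

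H3K9Ac in vehicle rats against controls was the second. All 3 tested Hox regions were higher by limma, where 90.8% of all tested regions were higher, and none of the 3 overlapped controls, as in 85.8% of all tested regions. Hoxc4 to Hoxc9 had 1.79, 1.53 and 1.61 in controls, 2.58, 2.79 and 1.94 with vehicle, and 1.88, 1.86 and 1.76 with TAK-418, and every vehicle library was above every control. Its log2 change was 0.37 (SE 0.14, limma adjusted p = 0.0132). Hoxd1 to Hoxd10 had 1.61, 1.32 and 1.38, then 1.98, 2.27 and 1.91, then 1.65, 1.87 and 1.60, and a log2 change of 0.33 (SE 0.13, limma adjusted p = 0.0161). Hoxb13 had 1.72, 1.65 and 1.64, then 2.45, 2.57 and 1.97, then 1.96, 1.99 and 1.78, and a log2 change of 0.31 (SE 0.14, limma adjusted p = 0.0334).

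These rises were small beside those of other tested regions, on a scale that understates changes of low signals. The median over all tested regions was 0.78, the 3 Hox changes lay at percentiles 3.5 to 5.13, and relative to the median they were -0.41, -0.46 and -0.47. With median-centred libraries the direction turned: Hoxb13 and Hoxc4 to Hoxc9 were called lower by limma (2 of 3, where 12.4% of all tested regions were called lower), and Hoxd1 to Hoxd10 had an adjusted p of 0.0501. With quantile normalization 0 of 3 was called by limma (0.362% of all tested regions called). Leaving out control 2, control 3 or vehicle replicate 2 gave 0 of 3 as well, while limma still called 13317, 13641 and 12375 of 17679 regions higher. Leaving out vehicle replicate 1 gave 1, with 68.8% of all tested regions called higher. Whether Hox H3K9Ac rose therefore depends on the scaling, which the sources used here do not describe. Under TAK-418 against vehicle, the changes were -0.17 to -0.27 with no call by limma (9.58% of all tested regions called, nearly all lower), and against controls 0.10 to 0.15 with no call (limma; 0% called, 3387 of 17679 at an unadjusted p under 0.05).

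The third was H3K9Ac in poly I:C vehicle mice against controls. HoxC had 2.82, 2.95 and 2.36 in controls, 2.19, 1.66 and 2.05 with vehicle, and 2.36, 2.39 and 1.73 with TAK-418. Every vehicle library was below every control. The log2 change was -0.32 (SE 0.13, limma adjusted p = 0.0333), so 1 of 2 tested regions was lower, where 64.0% of all tested regions were lower. The HoxC region also lists Smug1 and Cbx5, and its mean does not say where in it the change lies. In control rats the separate Smug1 and Cbx5 region had 2.88 of H3K9Ac, against 1.33 in Hoxc9 to Hoxc13 and 1.64 in Hoxc4 to Hoxc9. HoxA had 2.11, 2.01 and 1.84, then 1.75, 1.49 and 1.66, then 1.69, 1.76 and 1.53, also without overlap between vehicle and control (2 of 2, as in 70.5% of all tested regions), and a change of -0.18 (SE 0.10, limma adjusted p = 0.0754). The median change of all tested regions was -0.53, so HoxC was 0.20 and HoxA 0.35 above it. The call was lost (0 of 2) with either scaling above, and without control 1, control 2, vehicle replicate 2, vehicle replicate 3 or TAK-418 replicate 2. Under TAK-418, HoxC had a log2 change of 0.09 against vehicle and -0.24 against controls, with no call by limma in either (0% of all tested regions called in both, 5 and 9487 of 12747 at an unadjusted p under 0.05).

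H3K4me3 in mice gave no call over HoxA, HoxC or HoxD. Vehicle against control gave -0.21 to -0.24 (limma, 0% of all tested regions called, 4874 of 12439 at an unadjusted p under 0.05), TAK-418 against vehicle 0.07 to 0.12 (0% called, 94 at an unadjusted p under 0.05), and TAK-418 against control -0.10 to -0.15 (0.00804% called). The median changes of all tested regions were -0.46, 0.10 and -0.37. In HoxC and HoxD all vehicle libraries were below all controls, as in 52.5% of all tested regions. Without control 1, the library with the highest summed signal, the mouse changes were -0.08 to -0.11 for vehicle against control and -0.01 to 0.01 for TAK-418 against control, with no call by limma (35 and 17 of 12439 regions called).

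H3K27me3 gave no Hox call in any of the 6 comparisons, nor did limma call any other region at adjusted p under 0.05 (0%). At an unadjusted p under 0.05, 4, 2 and 11 of 15480 rat regions and 0, 26 and 8 of 9238 mouse regions passed, in the order vehicle against control, TAK-418 against vehicle and TAK-418 against control. In rats the Hox changes were 0.05 to 0.26, -0.10 to 0.11 and 0.14 to 0.26. Intervals were wide: Hoxd4 to Hoxd13 had 0.25 for vehicle against control with a 95% interval of -0.77 to 1.27, which covers both directions. The ratio of the highest to the lowest library had a median of 3.16 over the 9 rat regions and 4.90 over the 5 mouse regions, against 2.71 and 3.00 over all tested regions.

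In mice the TAK-418 group was low. Against controls the Hox changes were -0.46 to -0.64 (limma adjusted p = 0.402 for all 5), where all tested regions had a median of -0.40, and HoxA, HoxD and the Hoxd1 flank, 3 of 5, had no overlap between the groups, as did 47.3% of all tested regions. Against vehicle they were -0.51 to -0.64 (limma adjusted p from 0.321 to 0.329), where all tested regions had a median of -0.46. Vehicle against control gave -0.01 to 0.05.

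The mouse comparisons with the vehicle group depend on vehicle replicate 3, the H3K27me3 library with the fewest intervals. Without it, TAK-418 against vehicle gave -1.27 for HoxA (SE 0.32), -1.24 for HoxD, -1.21 for HoxC, -1.21 for HoxB and -0.78 for the Hoxd1 flank, each with a limma adjusted p of 0.000399, and 5 of 5 were called, where 9235 of 9238 tested regions (100%) were called. Relative to the median of all tested regions the cluster regions were then -0.39 to -0.45 and the flank 0.04. Vehicle against control without it gave 0.62 to 0.63 for the clusters (limma adjusted p = 0.116) and 0.32 for the flank, and no region was called.

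The same vehicle replicate of the H3K9me3 series, which need not be the same animal, had a high maximum over the Hox clusters, a pattern singled out after its values were seen. The highest H3K9me3 signal in HoxD was 23, 10 and 10 in controls, 6, 6 and 111 with vehicle, and 16, 5 and 13 with TAK-418. In HoxA it was 19, 11 and 10, then 8, 6 and 92, then 14, 7 and 12, and in HoxB 43, 25 and 15, then 11, 9 and 96, then 33, 7 and 23. In HoxC it was 15, 11 and 7, then 7, 6 and 58, then 12, 6 and 10. Vehicle replicate 3 was above every other library in these 4 regions, and in the Hoxd1 flank it had 5, within the other libraries' 2 to 6. Over the 601 other regions of the top 1% by control H3K27me3, the median of the highest H3K9me3 signal was 34 in that library and 5 to 11 in the other 8. Over all 60105 regions without Hox, Spearman's correlation of its highest H3K9me3 signal with control H3K27me3 was 0.11, within the range of -0.25 to 0.43 of the other 8 libraries; regions of 1 table share length and are not independent.

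**Figure D4:**
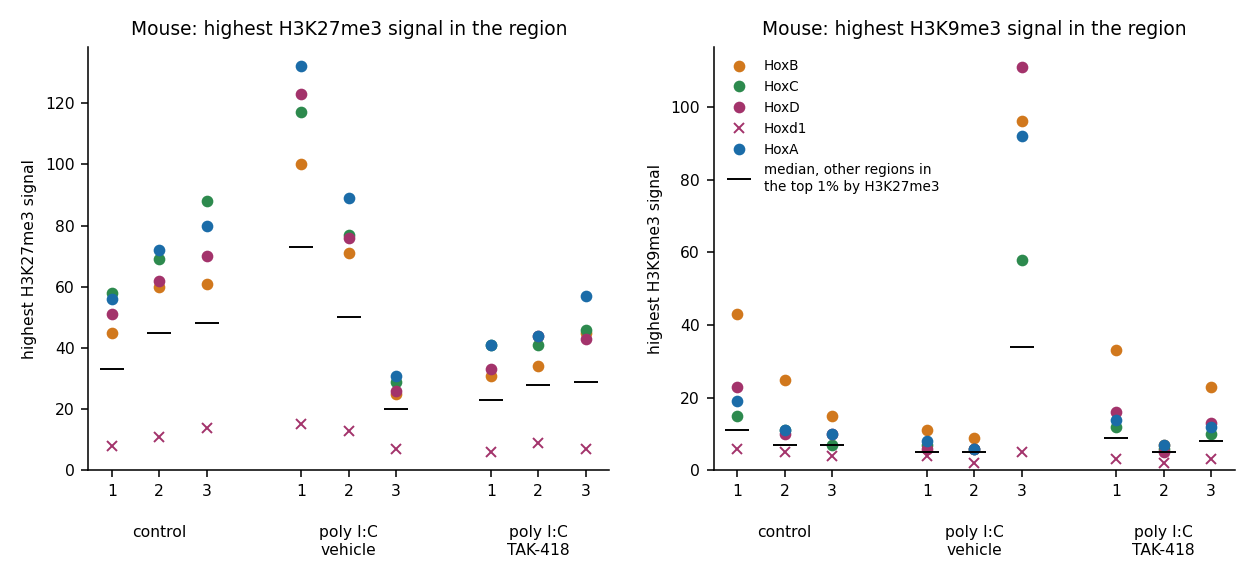
Highest H3K27me3 (left) and H3K9me3 (right) signal of the 5 mouse Hox regions in each library, linear axes; short bars are the median of the 601 other regions in the top 1% by control H3K27me3. In vehicle replicate 3, H3K27me3 is at its lowest over the 4 clusters while H3K9me3 reaches 58 to 111.

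Mean H3K9me3 gave no Hox call. In mice HoxD had 4.33, 2.33 and 2.14 in controls, 1.68, 1.61 and 6.72 with vehicle, and 3.34, 1.52 and 2.64 with TAK-418, overlapping in all pairs, and no Hox region was called in any comparison by limma (0% of all tested regions called; 26, 2 and 0 of 17543 at an unadjusted p under 0.05). For vehicle against control HoxD had a log2 change of -0.02 with vehicle replicate 3 and -0.53 without it (limma adjusted p = 0.259). In rats no Hox region was called either. Vehicle against control gave 0.25 to 0.44 and 0 of 8 by limma, where 56.2% of all tested regions were called, all higher, with a median of 0.50; TAK-418 against control gave 0.03 to 0.28 and 0 of 8, where 39.5% were called with a median of 0.48. Without control 1, the library with the fewest intervals, 133 and 205 of 26084 regions were called in these comparisons, and the rat Hox changes were 0.00 to 0.25 and -0.22 to 0.15, again with 0 of 8 called by limma. Hoxd4 to Hoxd13 had 2.32, 4.50 and 4.10 in controls, 5.74, 5.29 and 4.53 with vehicle, and 5.09, 3.81 and 3.00 with TAK-418. It had the largest Hox change for vehicle against control, 0.44 (95% interval -0.06 to 0.95, limma adjusted p = 0.103). In 5 of 8 regions all vehicle libraries were above all controls, as in 83.7% of all tested regions, and TAK-418 against vehicle gave -0.10 to -0.33 with no call (limma; 0% called, 128 of 26084 at an unadjusted p under 0.05).

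**Figure D5:**
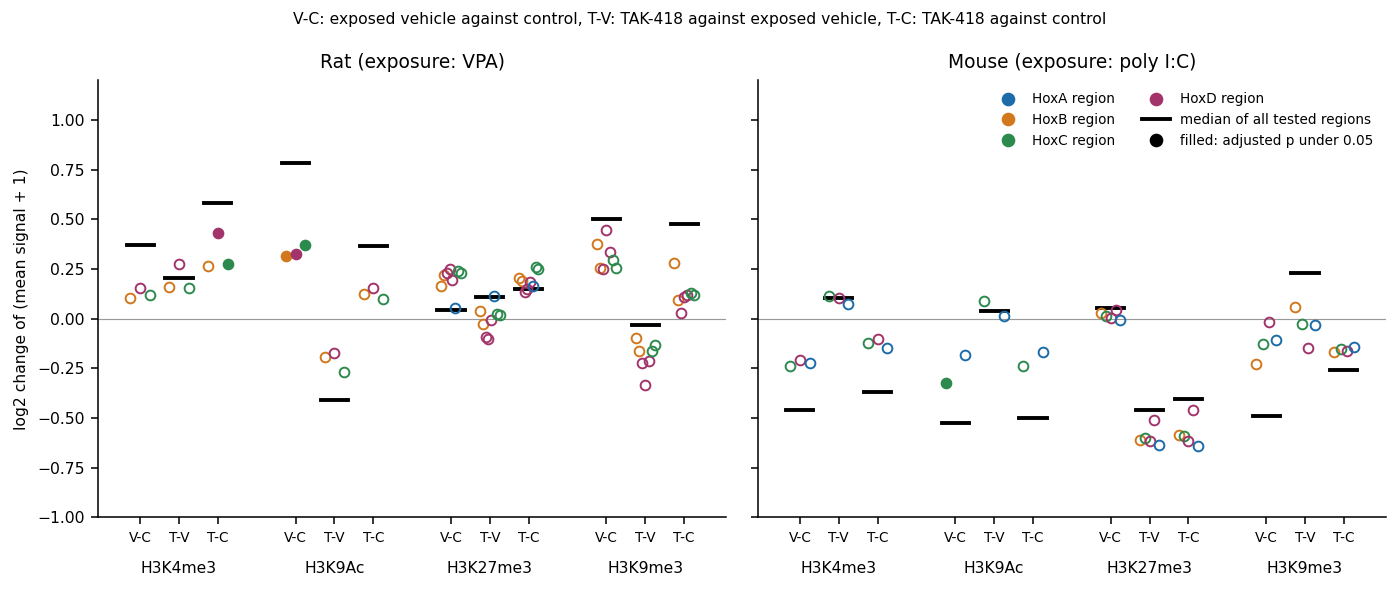
Log2 change of (mean signal + 1) for tested Hox regions, 3 comparisons per mark and species (V-C, exposed vehicle against control; T-V, TAK-418 against exposed vehicle; T-C, TAK-418 against control); filled points have a limma adjusted p under 0.05 and black bars are the median of all tested regions. The 6 filled points drawn are 2 in rat H3K4me3 T-C, 3 in rat H3K9Ac V-C and 1 in mouse H3K9Ac V-C, and the rat H3K9Ac points sit at 0.31 to 0.37 under a bar at 0.78.

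Gene lists that work with or around Hox are given by their counts in the 3 comparisons with Hox calls, in which 72.8% of all tested regions were higher, 90.8% higher and 64.0% lower. The TALE homeodomain cofactors (the Pbx, Meis and related genes, whose proteins bind DNA together with Hox proteins) had 14 of 17 regions higher for H3K4me3 in TAK-418 rats against controls, with a median of 0.60. They had 21 of 23 higher for H3K9Ac in vehicle rats (median 0.72) and 26 of 30 lower for H3K9Ac in vehicle mice (median -0.56). Retinoic acid genes, whose ligand switches on Hox genes in the hindbrain, had 19 of 20 higher, 19 of 19 higher and 12 of 12 lower in the same comparisons. Genes of the Polycomb complexes had 38 of 44 higher, 44 of 44 higher and 28 of 42 lower, and those of the Trithorax side, which keep Hox genes on, together with H3K27 demethylases 11 of 15, 15 of 15 and 13 of 16. No region of these lists was called in the opposite direction, and the lists were not tested against other regions.

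Beside the same shares of all tested regions (72.8%, 90.8% and 64.0%), genes flanking the clusters had 9 of 17 regions higher for rat H3K4me3 (median 0.45), 16 of 20 higher for rat H3K9Ac (median 0.73) and 9 of 18 lower for mouse H3K9Ac (median -0.47). ParaHox and caudal genes, the nearest relatives of Hox and activators of the posterior Hox genes, had 4 of 4, 4 of 4 and 1 of 1. Homeobox genes outside the clusters had 29 of 30 higher, 29 of 29 higher and 23 of 29 lower, with medians of 0.67, 0.72 and -0.40. The Hox medians in these 3 comparisons were 0.35, 0.33 and -0.25, each closer to 0 than those of the lists and of all tested regions. Changes of low signals, as over Hox regions, are understated on this scale. For H3K27me3 no region of these lists was called by limma in TAK-418 against control in either species; the other homeobox genes had medians of 0.17 over 57 rat regions and -0.54 over 42 mouse regions.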

How the data were processed

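Frozen cortex was fixed with formaldehyde and immunoprecipitated with antibodies to the 4 marks, per the labels' protocols. Reads were aligned with BWA 0.7.12 to rn5 and mm10, per the submitters' processing notes. How intervals were called, how wide the bins were and how libraries were scaled is not given in the sources used here. The deposited values are, per the file headers, a mean signal and a highest signal for each merged region and library, with whether an interval was called there; regions merge intervals of all marks, so a region's limits are the same for every library. Merging sets a region's length, and a long region dilutes a narrow mark in its mean.

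Hox members and gene lists were chosen with earlier results of these data known. Regions listing a Hox symbol were taken, with no member dropped; a region entered a test where an interval was called in at least 3 of the 9 libraries of the mark. Log2(mean signal + 1), with 1 as pseudocount, was fitted with limma 3.58.1 in R 4.3.3 (3 groups of a species and mark, trend and robust empirical Bayes), with Benjamini-Hochberg adjustment over all tested regions of a comparison and a threshold of 0.05. The procedure was run on values simulated from rat H3K27me3, centred on library medians and with noise independent between regions. That simulation lacks the spread shared by whole libraries, so it does not show how the test performs on the deposited values. Percentiles used the control mean over all regions of a table. Every library column matched 1 sample, and no pair of libraries of a mark was identical. Replicate numbers were not used to pair samples, as the labels do not say that they do. Same-number correlations of deviations ran from -0.60 to 0.62 and were all over 0.1 in 1 of 24 comparisons. With 3 libraries per group these correlations cannot settle the pairing. A region of the rat tables, counted in every total, is not reported here on its own. Regions were named by rule: in each species and cluster, those highest and lowest in control H3K27me3 and highest in control H3K4me3, the longest, and in each comparison up to 4 called regions or, with none called, the one with the smallest p. Alternatives were median centring, quantile normalization, a pseudocount of 0.1, no interval filter, the highest signal, a fit to the 6 libraries compared, a replicate block, and leaving out each library.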

Additional observations from a re-analysis of the deposited data

Results flagged for a closer look

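Exposed vehicle animals and controls differed in opposite directions in the 2 models for H3K4me3 and H3K9Ac over Hox regions. Every vehicle library lay beyond every control library on the median Hox region of a library, which was the rule for flagging these marks. The difference of group means of that median signal (vehicle minus control) was 0.366 in rats and -0.401 in mice for H3K4me3, and 0.569 in rats and -0.334 in mice for H3K9Ac. With libraries centred on their medians the directions turned: log2 changes were then -0.41 to -0.46 over rat regions and 0.21 over mouse HoxC for H3K9Ac, and -0.25 over rat Hoxd1 to Hoxd10 and 0.24 over mouse HoxC for H3K4me3. Log2(mean signal + 1) understates changes of low signals, so Hox changes can be smaller than a median set by stronger regions. How far this bears on the turn was not tested. The difference between species was not tested, and the median change of all tested regions had the same direction in each case. Of all tested rat regions, 50.8% for H3K4me3 and 85.8% for H3K9Ac were separated in that direction. In mice the shares were 52.5% and 70.5%. For H3K4me3 in vehicle against control, limma called no Hox region in either species, and 1.64% of all tested rat and 0% of all tested mouse regions. Groups of 3 libraries were too small to test single libraries as outliers.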

How the results depend on the processing

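Of 24 counts of Hox regions called, each recomputed under 7 other settings where a value could be had, 156 of 168 recomputed counts were within 1.5 times the value reported, as were 201 of 216 with 1 library left out. Most of the 24 counts were 0, and those that stayed 0 are included in these shares. The shares therefore say little about the 3 comparisons with a call, most of whose changes follow. Under median centring rat H3K4me3 in TAK-418 against control went from 3 to 0, rat H3K9Ac in vehicle against control from 3 higher to 2 lower, and mouse H3K9Ac in vehicle against control from 1 to 0. Quantile normalization gave 0 in all 3. With no interval filter rat H3K4me3 in TAK-418 against control gave 0 and mouse H3K9Ac in vehicle against control 0. On the highest signal that mouse count was 0 and rat H3K9Ac in TAK-418 against vehicle gave 1 (lower, as did 43.3% of all tested regions). Fitting only the 6 libraries compared gave 3 for rat H3K9me3 in vehicle against control (87.0% of all tested regions called higher). The replicate block, a pairing that the labels do not give, gave 2 for mouse H3K9Ac in vehicle against control (83.4% of all tested regions called lower) and changed no other count by over 1.5 times. The cause of these changes was not tested, beyond the scaling itself.

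With 1 library left out, counts ranged from 1 to 4 for rat H3K4me3 in TAK-418 against control (1 without TAK-418 replicate 1). For rat H3K9Ac they ranged from 0 to 3 in vehicle against control (0 without control 2, control 3 or vehicle 2, and 1 without vehicle 1) and from 0 to 3 in TAK-418 against vehicle (3 without vehicle 3, where 88.2% of all tested regions were lower). For rat H3K9me3 in vehicle against control the range was 0 to 5 (5 without TAK-418 replicate 1, where 89.9% of all tested regions were higher). For mouse H3K9Ac it was 0 to 2 in vehicle against control (0 without control 1, control 2, vehicle 2, vehicle 3 or TAK-418 replicate 2, and 2 without control 3) and 0 to 2 in TAK-418 against control (2 without control 3). Without control 3, 93.2% and 94.7% of all tested regions were lower in these comparisons. For mouse H3K27me3 in TAK-418 against vehicle it was 0 to 5 (5 without vehicle 3).

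Single log2 changes reversed as follows, with V for vehicle, T for TAK-418 and C for control. Median centring in rats gave H3K4me3 T-C -0.18 over Hoxd1 to Hoxd10 and -0.34 over Hoxc4 to Hoxc9. It gave rat H3K9Ac V-C -0.41 over Hoxc4 to Hoxc9, -0.45 over Hoxd1 to Hoxd10 and -0.46 over Hoxb13, T-V 0.13 over Hoxc4 to Hoxc9 and T-C -0.23 over Hoxd1 to Hoxd10. It gave rat H3K27me3 T-V -0.0090 over Hoxa3 to Hoxa6 and, over Hoxb13, rat H3K9me3 V-C -0.12 and T-C -0.19. In mice it gave H3K4me3 V-C 0.24 over HoxC and T-C 0.22 over HoxA, H3K9Ac V-C 0.21 and T-C 0.27 over HoxC, H3K27me3 V-C -0.012 over the Hoxd1 flank, and H3K9me3 V-C 0.26 over HoxB and T-C 0.11 over HoxC. Quantile normalization gave, over rat Hoxb13, H3K9Ac V-C -0.012 and H3K9me3 V-C -0.095 and T-C -0.17, and in mice H3K4me3 V-C 0.015 over HoxC and T-C 0.0035 over HoxA, H3K9Ac T-C 0.042 over HoxC, and H3K9me3 V-C 0.18 over HoxB and T-C 0.039 over HoxC. The highest signal gave rat H3K27me3 T-C -0.067 over Hoxc9 to Hoxc13 and mouse H3K4me3 T-V -0.43 over HoxC. Leaving out 1 library gave H3K27me3 ranges of -0.28 to 0.41 for T-V over Hoxa3 to Hoxa6 and -0.099 to 0.49 for T-C over Hoxc9 to Hoxc13 in rats, -0.17 to 0.32 for V-C over the mouse Hoxd1 flank, and H3K9me3 -0.41 to 0.37 for T-V over mouse HoxD.

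Most Hox regions were long, and a maximum tends to rise with region length. Median control percentiles of the Hox regions moved as follows on the highest signal: rat H3K9Ac from 55.9 to 71.7, rat H3K27me3 from 99.89 to 99.7, rat H3K9me3 from 76.2 to 95.8, mouse H3K4me3 from 67.9 to 82.7, mouse H3K9Ac from 53.7 to 71.2, mouse H3K27me3 from 99.94 to 99.82 and mouse H3K9me3 from 47.4 to 92.8. Among promoter regions they were 30.9, 21.8 and 99.77 for rat H3K4me3, H3K9Ac and H3K27me3, and 28.3, 19.8, 99.79 and 77.7 for mouse H3K4me3, H3K9Ac, H3K27me3 and H3K9me3. Without 1 control library the ranges were 61.4 to 74.1, 53.7 to 56.1, 99.88 to 99.9 and 71.0 to 79.9 in rats, and 66.2 to 70.0, 53.1 to 54.3, 99.93 to 99.94 and 46.3 to 56.0 in mice, in the order H3K4me3, H3K9Ac, H3K27me3 and H3K9me3.

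Read depth is unknown, so no counting error can be given. Levels near 1 are the lowest the tables hold above 0, and changes below that level cannot be measured.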
